A study of Mus musculus with 24 samples.

Results

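Lce1a1, Lce1a2, Lce1b, Lce1d, Lce1f, Sprr1a, Sprr1b, Sprr3, Lor and Krt10 are genes of the cornified envelope and the differentiated layers of stratified epithelium. They were taken by name, as probe sets annotated to them, and are 10 of the 12394 genes measured on these arrays, each read here through 1 of 14 probe sets. They were chosen for their levels on these same arrays, so those levels are given as a description and carry no test. All 10 had a measured probe set, and no member was removed by a filter on low values.

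Affymetrix Mouse430A_2 arrays, which read a transcript with a set of short probes, were run on 24 thyroid samples of mice. Of these, 6 were pools of normal glands, 4 were papillary thyroid cancers (PTC, still differentiated), 5 were anaplastic thyroid cancers (ATC, which have lost differentiation) and 9 were recurrent tumours. The series title concerns resistance to BRAF inactivation, Met amplification and Hgf overexpression, and the glands come from several mouse models. For single samples the labels give no genotype, strain, transgene driver, treatment, time or age. It is not stated that the tumours of a group are from different mice, so a p-value here reflects the scatter of these arrays, part of which may be technical. By title, the JK arrays comprise 4 normal pools (WT in the title), 4 PTC, 2 ATC and 3 recurrent tumours, while 2 pools are titled Cre and 3 ATC and 6 recurrent tumours have a bare number. In tissue RNA, fewer cells of a type and less RNA per cell cannot be told apart.

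Keratinocytes at the surface of stratified epithelia replace their plasma membrane with a cornified envelope, a shell of proteins cross-linked by transglutaminases. Loricrin (Lor) is its main component in epidermis, small proline-rich (Sprr) proteins are cross-bridging partners, and late cornified envelope (Lce) proteins are added late. Most of these genes lie side by side in the epidermal differentiation complex, and thyroid follicles, a simple epithelium, do not normally cornify. Krt10 is the type I keratin of suprabasal epidermis, where it pairs with Krt1, whereas Krt4 and Krt13 form the suprabasal pair of moist mucosae such as oral cavity and oesophagus.

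The members followed more than 1 pattern over the arrays, and the sequence upstream of 4 of them is shown because each stands for a pattern described here: Sprr1a high in every ATC, Sprr1b in part of the tumours, and Lor and Lce1d highest on the same 3 arrays. Each window is the 160 bases before the annotated transcription start, 5′ to 3′ on the coding strand, from RefSeq's GRCm38.p6 annotation. Capitals mark 2 motifs, both searched on both strands. The first, TGANTCA, is the core recognised by AP-1 factors. The second, the TATA box, was searched as TATAAA.
Sprr1a (chr3:92485882-92486041, minus strand): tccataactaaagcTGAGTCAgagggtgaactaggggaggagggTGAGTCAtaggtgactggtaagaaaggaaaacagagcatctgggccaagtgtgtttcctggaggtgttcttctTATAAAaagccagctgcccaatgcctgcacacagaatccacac
Sprr1b (chr3:92438780-92438939, minus strand): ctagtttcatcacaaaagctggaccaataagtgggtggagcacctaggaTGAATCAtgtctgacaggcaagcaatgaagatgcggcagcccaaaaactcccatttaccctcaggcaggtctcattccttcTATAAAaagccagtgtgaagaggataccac
Lor (chr3:92083143-92083302, minus strand): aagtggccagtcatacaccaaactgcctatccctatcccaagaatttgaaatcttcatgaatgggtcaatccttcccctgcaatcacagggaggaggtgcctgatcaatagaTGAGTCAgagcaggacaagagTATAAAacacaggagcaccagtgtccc
Lce1d (chr3:92687211-92687370, minus strand): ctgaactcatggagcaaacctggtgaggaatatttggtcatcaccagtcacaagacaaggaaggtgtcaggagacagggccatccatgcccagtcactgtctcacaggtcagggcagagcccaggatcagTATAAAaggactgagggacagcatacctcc

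In the 300 bases around the start that the reference table gives (250 before, 50 after), TGANTCA was found in 3 of the 9 members with an entry and in 7.81% of the 32851 promoters of the table. Sprr1a held 2 such matches, beginning 146 and 116 bases upstream, Sprr1b held 1 at 111 bases and Lor 1 at 48 bases. The TATA box was found in 6 of the 9 members and in 13.6% of all promoters, and the 2 motifs did not overlap in the windows shown. A match describes the letters of this window and does not show that a factor bound there. Lce1f has no entry in the table.

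Values are log2 intensities, on which 1 unit is a 2-fold difference, and levels are compared between arrays for 1 gene, never between genes. Array medians lay between 7.38 and 7.58. Thyroid markers matched the normal label: the mean of 10 measured of 13 follicular genes differed from the mean of the pools by -0.16 to 0.20 on single pools, by -1.45 to -0.84 on PTC, by -4.09 to -2.18 on ATC and by -4.59 to -1.87 on recurrent arrays. A thymus list (12 of 13 measured) stood 1.52 above the pools' mean on normal pool 3 and at or below 0.02 on every tumour array. An array's excess is counted below as the number of genes lying over 1 log2 unit above the highest normal pool.

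Recurrent array 5 carried the most members past that mark, 9 of 10, against 7.13% of all genes. Recurrent array 1 had 8 (all genes 6.68%) and ATC array 2 had 8 (6.42%). In both of these Sprr1b and Krt10 were the members not past it, while on recurrent array 5 it was Krt10 alone. Because these arrays were what the members were chosen on, the counts describe the choice and support nothing. On the other recurrent arrays 3 members passed on array 2 (10.9% of all genes), 3 on array 3 (10.2%), 3 on array 4 (7.05%), 2 on array 8 (7.59%) and 3 on array 9 (8.51%). On recurrent arrays 6 (6.04%) and 7 (8.78%) 0 passed. Of the other ATC arrays, 1 (6.59%) and 4 (7.5%) had 2 members each, and 3 (7.71%) and 5 (7.5%) had 1 each. On the PTC arrays 0 members passed, with 2.49% to 3.64% of all genes. The median member stood 7.29 above its normal mean on recurrent array 5, 3.99 on recurrent array 1 and 3.25 on ATC array 2.

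**Figure D1:**
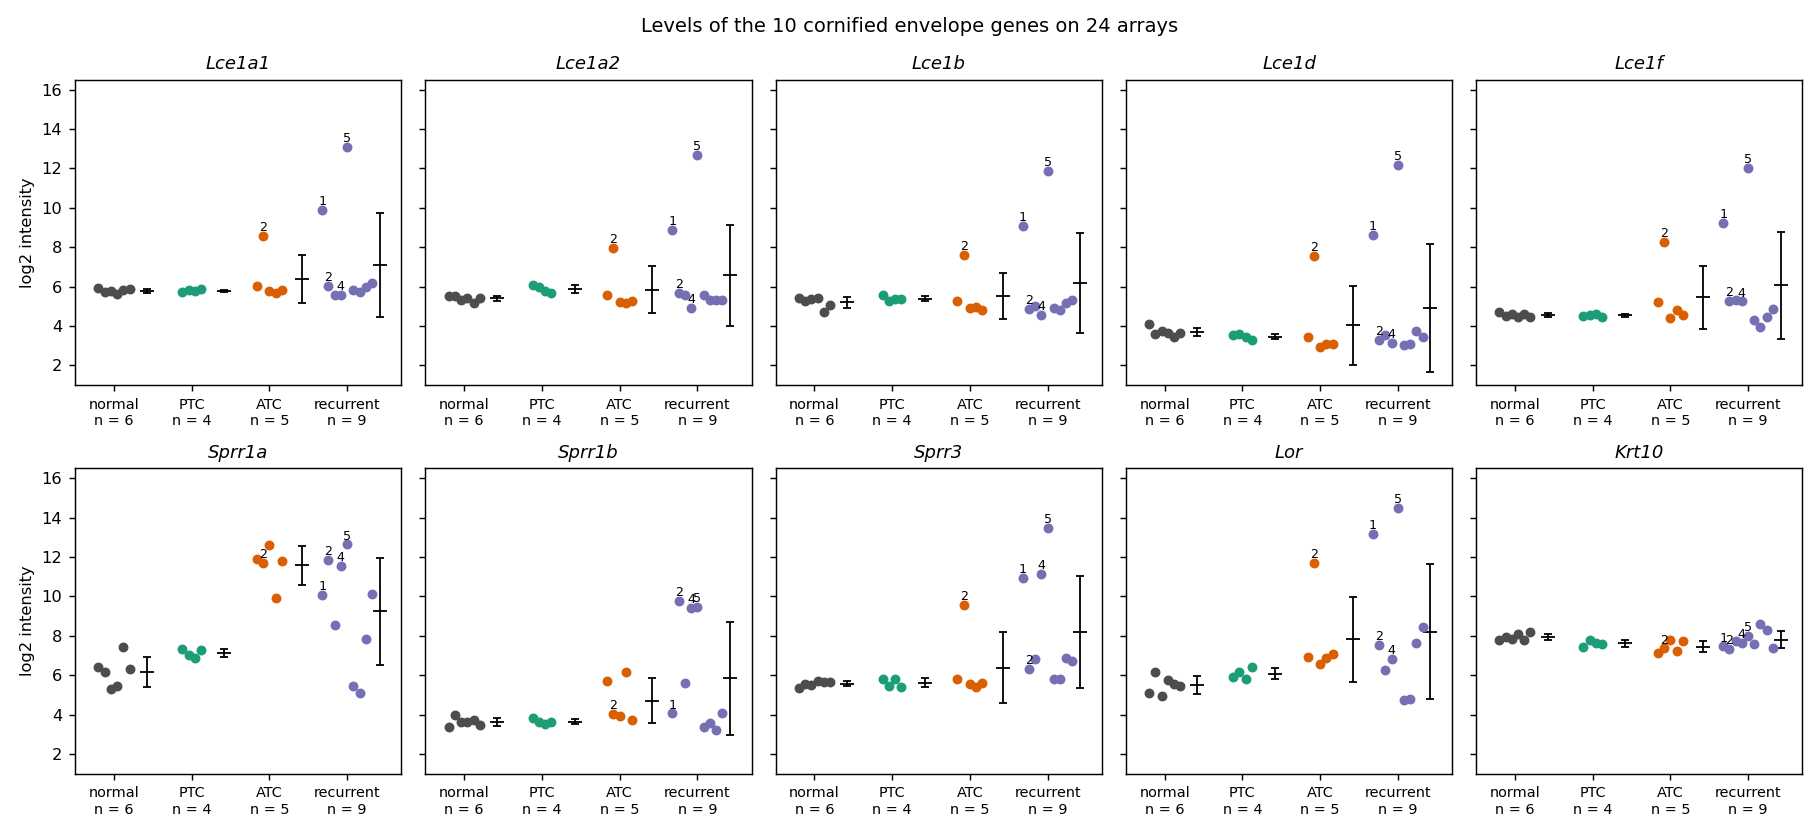
Log2 intensity of each of the 10 genes on 24 arrays. Each point is 1 array, the horizontal mark with bars is the mean with SD of the group, and the small numbers name ATC array 2 and recurrent arrays 1, 2, 4 and 5. The 5 Lce1 genes, Lor and Sprr3 are highest on recurrent array 5, where Lor reached 14.50 and Sprr3 13.48, Sprr1a is high on all 5 ATC arrays, and Krt10 stays between 7.15 and 8.62.

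Lor encodes loricrin. In normal pools it ranged from 4.96 to 6.18 with a median of 5.50, and on PTC arrays it read 5.91, 6.17, 5.81 and 6.44. On ATC arrays 1 to 5 it read 6.91, 11.68, 6.56, 6.87 and 7.07. On recurrent arrays 1 to 9 it read 13.17, 7.55, 6.27, 6.81, 14.50, 4.75, 4.82, 7.64 and 8.47. All 5 ATC arrays lay above all 6 pools, which held for 14.9% of all genes, and ATC array 2 lay far above the other 4. Recurrent arrays spread on both sides of the pools, with 7 above the highest and 2, arrays 6 and 7, below the lowest. The mean difference from normal pools was 2.31 (SE 1.36) for ATC and 2.72 (SE 1.19) for recurrent arrays, and 1.93 for recurrent arrays without array 5. A second probe set for Lor gave 14.30 on recurrent array 5, 12.84 on recurrent array 1 and 11.23 on ATC array 2. The third stayed between 4.97 and 6.22 on all tumour arrays.

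The Lce1 genes, whose proteins are built into the envelope late in cornification, lay above the pools together, on 3 arrays. Lce1d ranged from 3.45 to 4.09 in normal pools with a median of 3.63, and on PTC arrays from 3.29 to 3.60. On ATC arrays 1 to 5 it read 3.46, 7.57, 2.95, 3.06 and 3.10. On recurrent arrays 1 to 9 it read 8.63, 3.30, 3.56, 3.14, 12.16, 3.05, 3.09, 3.74 and 3.46. ATC array 2 and recurrent arrays 1 and 5 therefore stood apart from the remaining tumour arrays, which did not exceed the highest pool.

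The other 4 Lce1 genes put the same 3 arrays in the same order. Lce1a1 read 13.10 on recurrent array 5, 9.87 on recurrent array 1 and 8.57 on ATC array 2, against 5.63 to 5.91 in normal pools and 5.58 to 6.17 on the remaining tumour arrays. Lce1a2 read 12.67, 8.86 and 7.97 on those arrays, against 5.18 to 5.54 in pools. Lce1b read 11.89, 9.09 and 7.61, against 4.71 to 5.42. Lce1f read 12.00, 9.23 and 8.26, against 4.43 to 4.70, and lay above the pools by less, between 4.83 and 5.34, on ATC arrays 1 and 4 and recurrent arrays 2, 3, 4 and 9. Lce1a2 was the 1 member for which all 4 PTC arrays (5.66 to 6.07) lay above all pools, as did 14.6% of all genes. For 0 members did all PTC arrays lie below all pools (19.7% of all genes).

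Group means say little about genes carried by so few arrays. The mean difference of recurrent arrays from normal pools was 0.96 to 1.52 over the 5 Lce1 genes, each with an SE of 0.85 to 1.11, and without recurrent array 5 it was 0.24 to 0.78. For ATC it was 0.30 to 0.90 with SEs of 0.98 to 1.28. Each title series holds 1 of the high recurrent arrays, array 1 in JK and array 5 outside it. Recurrent arrays of the JK series stood 1.41 above its pools in Lce1d, and recurrent arrays outside it 1.22 above the Cre pools. The Lce1 genes are close relatives, and the probe sets of Lce1a1 and Lce1d carry the x_at ending that marks probes shared with similar transcripts, so their signals cannot be fully assigned to 1 gene. A second Lce1a1 probe set without that ending read 11.31, 8.05 and 6.79 on the 3 arrays. A second Lce1f probe set read 8.80, 5.13 and 4.88, and passed the mark on recurrent array 5 alone.

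Sprr3, a small proline-rich protein of the moist stratified epithelia, shared the 3 arrays and added another. It ranged from 5.37 to 5.69 in normal pools with a median of 5.60, read 5.81, 5.47, 5.81 and 5.42 on PTC arrays, and on ATC arrays 1 to 5 read 5.83, 9.57, 5.54, 5.41 and 5.59. On recurrent arrays 1 to 9 it read 10.96, 6.31, 6.83, 11.14, 13.48, 5.79, 5.80, 6.89 and 6.70. Recurrent array 4, where the Lce1 genes differed from their normal means by -0.65 to 0.70, was thus the second highest for Sprr3. All 9 recurrent arrays lay above all pools, which held for 2.9% of all genes, although arrays 6 and 7 (5.79 and 5.80) lay close to the highest pool. For 0 members did all recurrent arrays lie below all pools (5.12% of all genes). The mean difference from normal was 2.64 (SE 0.98) for recurrent arrays, 1.98 without array 5, and 0.82 (SE 1.13) for ATC.

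Sprr1a, an envelope cross-bridging precursor also known as a gene switched on in stressed and injured cells, was the member high in every ATC. It ranged from 5.31 to 7.44 in normal pools with a median of 6.25, and read 7.35, 7.04, 6.88 and 7.27 on PTC arrays. On ATC arrays 1 to 5 it read 11.88, 11.70, 12.62, 9.92 and 11.79, all above all pools. On recurrent arrays 1 to 9 it read 10.08, 11.86, 8.55, 11.57, 12.64, 5.48, 5.10, 7.82 and 10.12. Arrays 6 and 7 lay within or below the pools, so recurrent tumours ranged from the normal level to the ATC level. The mean difference from normal was 5.40 (SE 1.04) in ATC, 3.06 (SE 0.90) in recurrent and 0.95 (SE 1.11) in PTC arrays. Recurrent arrays stood 2.34 (SE 0.96) below ATC. Within the JK series recurrent arrays stood 4.33 above the pools, and outside it 1.91.

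Sprr1b, the close relative of Sprr1a, was high on fewer arrays. It ranged from 3.38 to 3.99 in normal pools with a median of 3.64 and from 3.50 to 3.83 on PTC arrays. On ATC arrays 1 to 5 it read 5.69, 4.02, 3.91, 6.17 and 3.72. On recurrent arrays 1 to 9 it read 4.06, 9.76, 5.59, 9.43, 9.47, 3.35, 3.58, 3.20 and 4.10. Recurrent arrays 2, 4 and 5 were the highest, and these were also the recurrent arrays highest in Sprr1a. On ATC array 2 and recurrent array 1, where Lor and the Lce1 genes were high, Sprr1b stood 0.39 and 0.42 above its normal mean. The mean difference from normal was 2.20 (SE 0.94) for recurrent and 1.06 (SE 1.08) for ATC arrays.

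Krt10, the keratin of suprabasal epidermis, did not share the pattern. It ranged from 7.79 to 8.20 in normal pools with a median of 7.87, read 7.42, 7.81, 7.65 and 7.59 on PTC arrays and 7.15, 7.36, 7.78, 7.22 and 7.75 on ATC arrays. On recurrent arrays 1 to 9 it read 7.46, 7.34, 7.76, 7.66, 7.99, 7.60, 8.62, 8.30 and 7.40. All 5 ATC arrays lay below all pools, as did 19.2% of all genes, by 0.49 on average (difference -0.49, SE 0.20). The separation was slight, since ATC array 3 (7.785) lay just under the lowest pool (7.787). On recurrent array 5 it was within the range of the pools. Its epidermal partners did not stand out on that array either: Krt1 read 4.48 there against 4.52 to 5.14 in the pools, and Krt2 read 3.29 against 3.52 to 3.86. Flg, the filaggrin precursor of epidermal granular cells, lay between 3.07 and 3.74 on all 24 arrays. Krt1, Krt2 and Flg read low on every array, so no array shows that their probe sets respond. For these genes an absent transcript cannot be told from a silent probe set, and their flat readings do not show that the transcripts were missing.

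The keratins of moist mucosa were high on the arrays where Lor, Sprr3 and the Lce1 genes were. Krt4 read 14.72 on recurrent array 5, 13.64 on array 1, 13.45 on array 4, 9.66 on array 8 and 9.24 on array 9, and 12.74 on ATC array 2, against at most 6.65 in the pools. Krt13 read 12.96, 11.01, 10.76, 6.32 and 6.12 on those recurrent arrays and 9.16 on ATC array 2, against at most 5.07. These 6 of 18 tumour arrays, 5 of them recurrent, were the ones on which both keratins lay over 1 log2 unit above the highest pool. Recurrent array 4 held both keratins near the level of array 1, yet its Lor (6.81) and Lce1d (3.14) lay far below that array's.

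**Figure D2:**
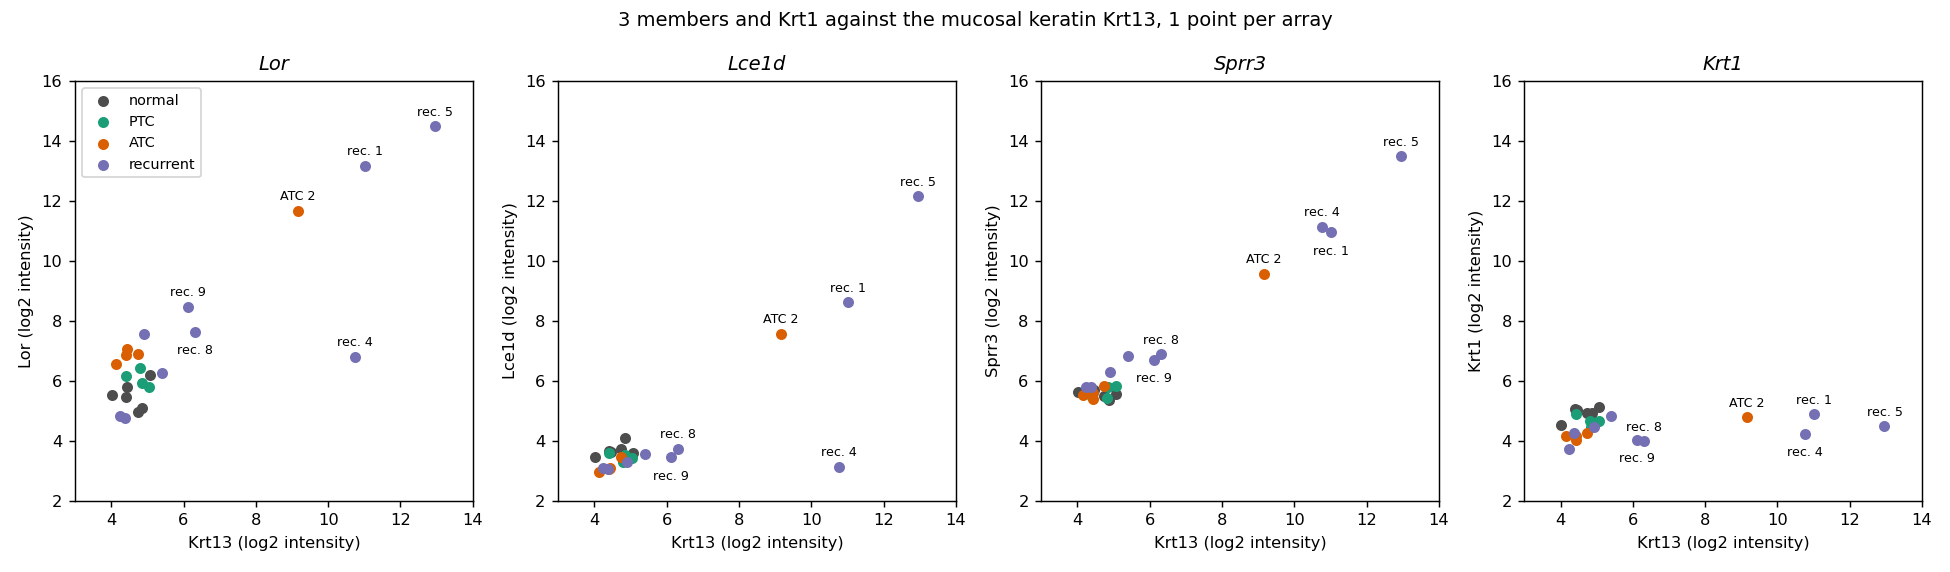
Lor, Lce1d, Sprr3 and Krt1 (vertical axes, log2 intensity) against Krt13 (horizontal axis, log2 intensity), 1 point per array, coloured by group. ATC array 2 and recurrent arrays 1 and 5 combine high Krt13 with high Lor, Lce1d and Sprr3, recurrent array 4 (Krt13 10.76) has high Sprr3 but low Lce1d, and Krt1 lies between 3.73 and 5.14 on all arrays.

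Lists of genes that mark other cell types moved with the members to unequal degrees. An oesophagus and oral mucosa list (7 of 9 measured, 5 of the 7 also in the keratinocyte lists below) stood on average 3.86 above its normal mean on recurrent array 5, 2.68 on recurrent array 1, 2.43 on recurrent array 4 and 2.23 on ATC array 2. Of its 7 measured genes, 4 passed the mark on recurrent arrays 5 (7.13% of all genes) and 1 (6.68%). On recurrent array 4 (7.05%) and ATC array 2 (6.42%) 3 did. Krt4 and Krt13 belong to this list and are among those genes on each of these arrays. Rptn, also in the list, was read through its brightest probe set. Another Rptn probe set, not used, read 13.59, 11.47 and 9.21 on recurrent arrays 5 and 1 and ATC array 2. On the other tumour arrays the list's mean lay between -0.24 and 0.61, and on single pools between -0.24 and 0.27. An airway list (10 of 10 measured) stood 3.94 above on ATC array 2, 3.85 on recurrent array 5, 2.87 on array 9, 2.53 on array 1 and 1.23 on array 4, against -2.09 to 1.03 on the remaining tumour arrays and -0.47 to 0.50 on the pools. The part of such cells in the members' levels was not tested.

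A hair follicle list (18 of 21 measured) lay between -0.25 and 0.53 of its normal mean on every array, and a melanocyte list (7 of 8) between -0.42 and 0.32. A sebaceous gland list (5 of 9) stood 5.48 above on recurrent array 6, where 0 members passed the mark, and between -0.80 and 0.25 on all others. Recurrent minus normal differences were also taken without the 6 arrays high in both Krt4 and Krt13. They were -0.43 for Lce1d, -0.33 for Lce1b, 0.34 for Lor, 0.61 for Sprr3, 1.56 for Sprr1a and 1.93 for Sprr1b. The arrays left out include ATC array 2 and recurrent arrays 1 and 5, the highest in Lor and the Lce1 genes. The low Lor and Lce1 differences therefore follow from that choice of arrays. Of the arrays kept, recurrent array 2 stood 5.67 and 6.12 above the normal means of Sprr1a and Sprr1b, and arrays 6 and 7 below them. The comparison without these 6 arrays was added after the values were seen.

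**Figure D3:**
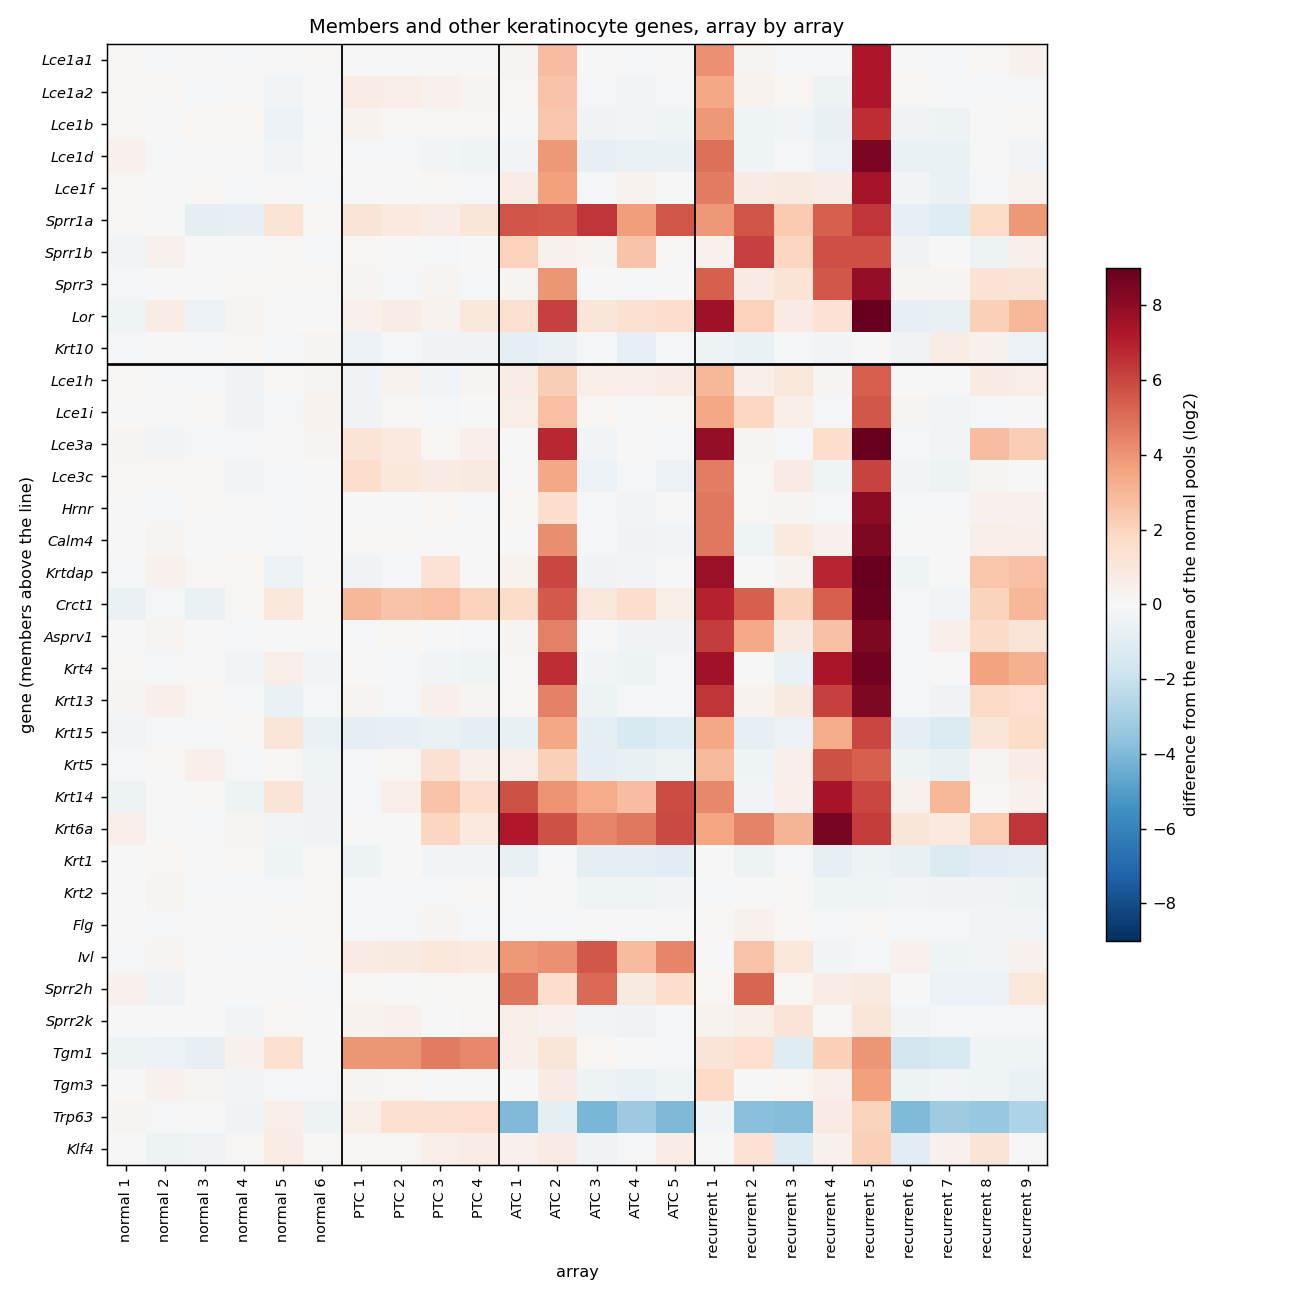
Difference of each array from the mean of the 6 normal pools (log2, red higher, blue lower) for the 10 members, above the black line, and for 25 other keratinocyte genes, below it. Columns are arrays and black vertical lines divide the groups. Recurrent arrays 5 and 1 and ATC array 2 form red columns through most Lce genes, Hrnr, Calm4, Krtdap, Krt4 and Krt13, while Krt1, Krt2 and Flg stay pale, Ivl is red on ATC arrays and Tgm1 on PTC arrays.

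The genes most alike the members over the 24 arrays were ranked by the root-mean-square difference between a gene and the mean of the members, each centred on its normal pools. Among 5692 genes with an SD over 0.5 the median difference was 2.00. The nearest 8 were Lce1h (0.54), Gsdma (0.55), Lce1i (0.56), Klk11 (0.68), Hrnr (0.73), Calm4 (0.76), Lce3c (0.79) and Teddm3 (0.79), and 6 of these 8 belong to the keratinocyte lists, as do 11 of the nearest 40 and 81 of all 5692 ranked (1.42%). The lists were chosen with these data known, so the counts are a description. Hrnr, an S100-fused protein of the envelope, read 11.15 on recurrent array 5, 7.89 on recurrent array 1 and 4.72 on ATC array 2, against a normal mean of 3.13. Gsdma, a gasdermin of skin and upper digestive tract, read 10.11, 7.33 and 6.11 there against 3.92. Of the members Lce1f (0.48) and Lce1a1 (0.60) lay nearest to their common mean, and Sprr1a (2.49), Krt10 (1.98) and Sprr1b (1.67) farthest.

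All members except Krt10 lie on 1 chromosome, in a stretch of 27 coding genes from Lor to Lce1f of which 16 were measured, 7 of them not members. On recurrent array 5, where 7.13% of all genes passed the mark, 0 of these 7 did, a count near that share. They were Sprr2d, Sprr2f, Sprr2h, Sprr2i, Sprr2k, Ivl and Smcp, with a median difference from normal of 0.37. On recurrent array 4 (7.05% of all genes) 2 passed it, Sprr2d at 2.20 and Sprr2f at 2.49 above their normal means. Past Lce1f, 8 of the 9 measured among the next 20 coding genes passed it on recurrent array 5, among them Lce3a (9.13 above its normal mean), Crct1 (8.80), Lce3c (6.09) and Lce1i (5.62), while Flg stood 0.14 above. Before Lor, 5 of 13 measured did, all of them S100 genes, among them S100a14 (5.72) and S100a9 (4.15). The members were picked for their levels, so the contrast with unpicked neighbours is a description.

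**Figure D4:**
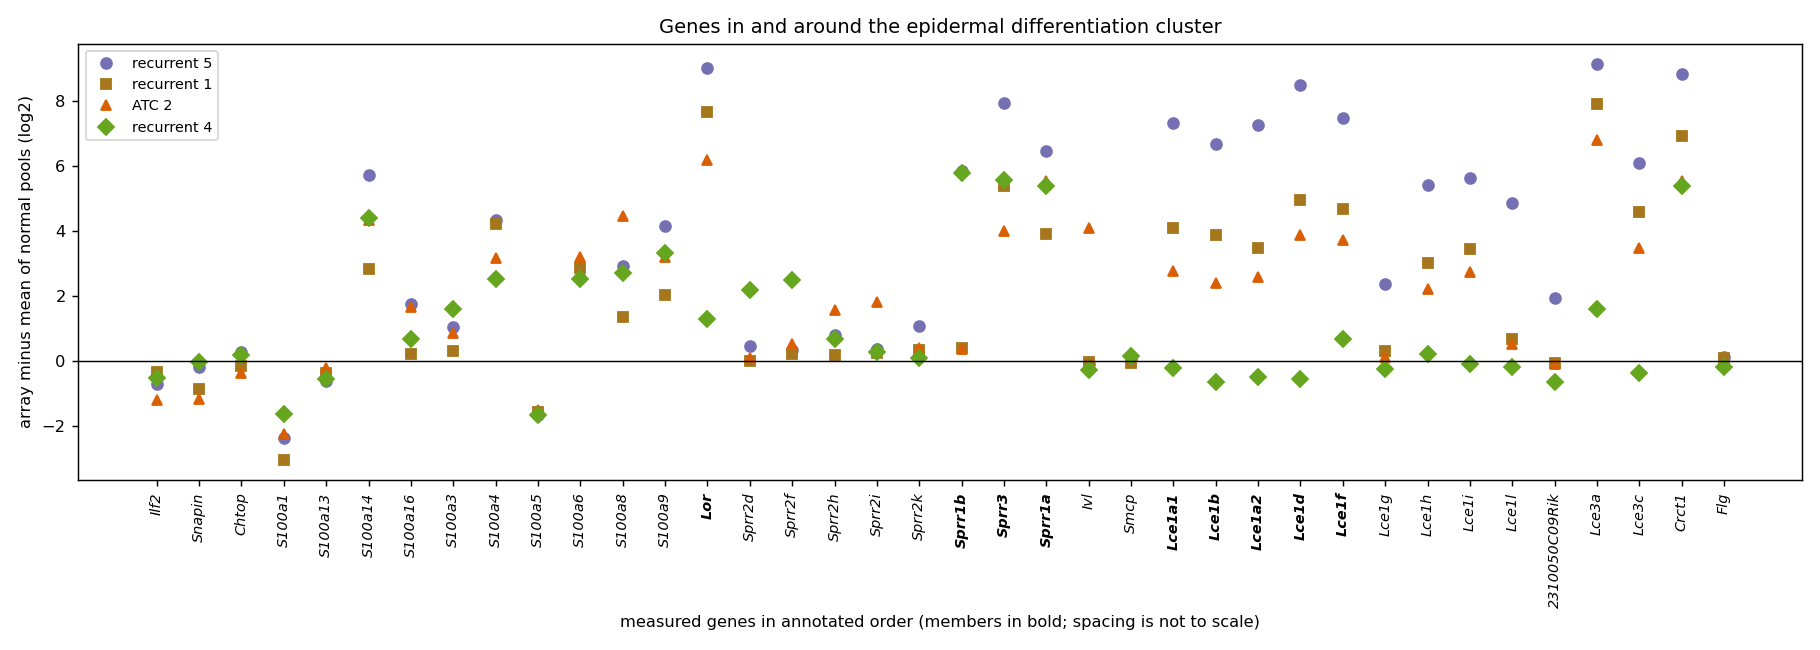
Measured genes in and around the epidermal differentiation complex in annotated order (horizontal axis, members in bold, spacing not to scale) and their difference from the mean of normal pools (vertical axis, log2) on recurrent arrays 5, 1 and 4 and ATC array 2. Lor, Sprr3, Sprr1a and the Lce1 to Crct1 block are high on recurrent array 5, Smcp and Flg lie near 0, Sprr2d and Sprr2f reach 2.20 and 2.49 on recurrent array 4, and Ivl is high on ATC array 2 (4.08) but not on the 3 recurrent arrays shown.

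To place the members in the wider programme, 92 measured of 135 other keratinocyte genes in 8 lists were read from a fit over all 12394 genes (limma, Benjamini-Hochberg adjusted p below 0.05). These lists hold no member. The fit used 1 spread per gene shared by all groups, so scatter among ATC and recurrent arrays enters the SE of PTC against normal. With PTC and pools fitted alone more list genes were called, as given in the last section. In PTC 6 rose and 2 fell against normal pools, 8.70% of the list genes against 14.2% of all genes (6.16% higher and 8.03% lower). Tgm1, the transglutaminase that cross-links envelope proteins at the membrane, rose by 4.24 (SE 0.78, limma adjusted p = 0.000729) and was high on all 4 PTC arrays, at 10.46 to 11.14 against 5.74 to 7.89 in pools. Tgm2 rose by 1.55 (adjusted p = 0.040), so 2 of 5 cross-linkers and plakins rose. For Tgm2 the groups overlapped: normal pool 5 read 11.84, above PTC arrays 1 and 2 (11.65 and 11.59). Cst6, a cysteine protease inhibitor that is itself cross-linked into the envelope, rose by 2.55 (SE 0.61, adjusted p = 0.0065). It was the 1 of 24 envelope precursors called. Jup, the plakoglobin of desmosomes and adherens junctions, rose by 1.68, and of 17 regulators Cebpa rose by 1.53, Tfap2a rose by 1.93 and Gata3 fell by 2.70. Fa2h, a fatty acid hydroxylase for skin ceramides, fell by 0.93 among 11 barrier lipid genes. The Tgm2 and Tfap2a calls were lost when single arrays were left out, with adjusted p of 0.040 and 0.047 in the full fit. Leaving out any 1 PTC array ended both.

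In ATC 16 list genes rose and 8 fell, 26.1% against 34.3% of all genes (15.1% higher and 19.1% lower). The median difference over the 92 was 0.17. Ivl, involucrin, an early scaffold protein of the envelope, rose by 4.15 (SE 0.43, limma adjusted p = 2.65e-07). It read 9.27, 9.48, 10.96, 8.25 and 9.77 on ATC arrays 1 to 5 against 5.23 to 5.65 in pools. Among 24 precursors Sprr2h (2.76), Tchh (1.29) and Sprr2i (0.91, called in 12 of 34 alternatives) rose too, and Calml3, a calmodulin-like protein of epithelia, fell by 5.16 (adjusted p = 0.0013). Of 10 basal, stress and mucosal keratins 3 rose: Krt6a by 5.61 (SE 1.01, adjusted p = 0.000178), Krt14 by 4.36 and Krt16 by 3.13. Of 11 desquamation proteases and inhibitors 4 rose, led by Serpinb2, a serine protease inhibitor, by 6.16 (SE 1.19, adjusted p = 0.000359). Prss8, a membrane protease of the epidermal barrier, fell by 3.24.

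Other lists in ATC split. Of 11 desmosome genes Pkp1 rose by 3.78 and Pkp2 fell by 1.46, and of 11 barrier lipid genes Ugcg, glucosylceramide synthase, rose by 1.97 while Smpd1 fell by 1.20. Of 17 regulators 3 rose, Tfap2a most, by 2.28, and 2 fell. Trp63, the transcription factor that maintains stratified epithelium, fell by 3.24 (SE 0.91, adjusted p = 0.0078). Its other 2 probe sets differed by -0.13 and -0.27. On ATC array 2, where the Lce1 genes were high, the probe set used read 7.14, against 3.91 to 4.74 on the other 4 ATC arrays and 7.56 to 8.62 in pools. Krt1 was the 1 of 3 suprabasal keratins called, and it fell by 0.66, at low signal (mean 4.28 in ATC and 4.94 in pools). Of the 5 cross-linkers and plakins 0 were called by limma. Within the JK series alone the Trp63, Krt1, Sprr2h and Pkp2 calls were lost, and outside it, with 3 ATC against 2 pools, Ivl was the 1 list gene still called (difference 4.27, adjusted p = 0.0076).

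**Figure D5:**
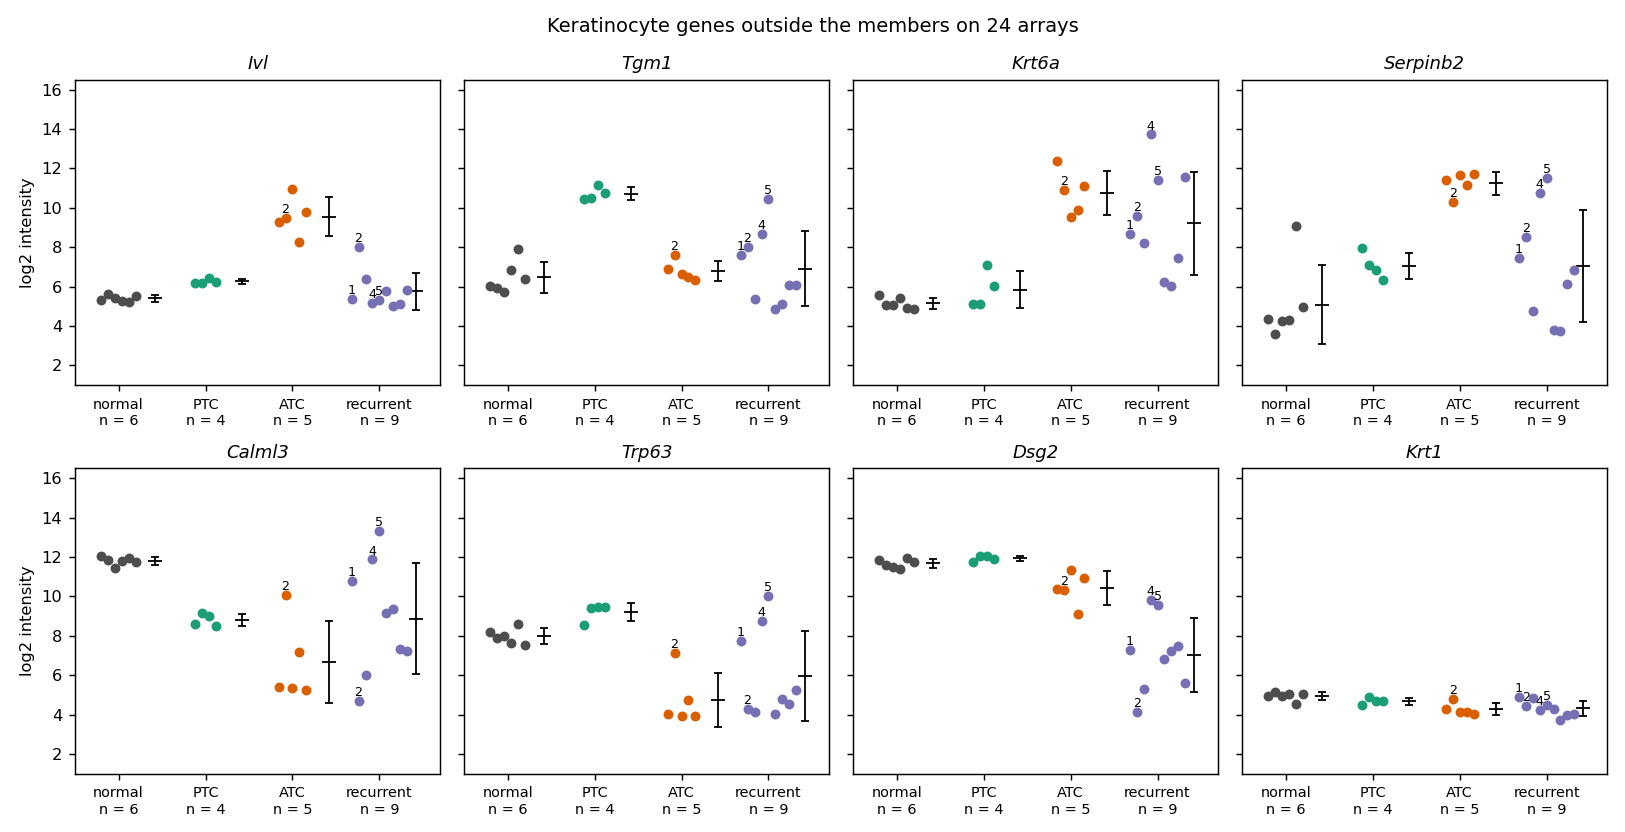
Log2 intensity of 8 keratinocyte genes that are not members, 1 point per array, with the mean and SD of each group as a mark with bars. Tgm1 is high on all 4 PTC arrays, Ivl, Krt6a and Serpinb2 on all 5 ATC arrays, and on recurrent arrays 4 and 5 Trp63 (8.75 and 10.05) and Calml3 stay near or above the pools while Dsg2 is lower on every recurrent array than in any pool.

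In recurrent arrays 7 list genes rose and 17 fell against normal pools, 26.1% against 33.8% of all genes (14.5% higher and 19.3% lower), with a median difference of 0.44 over the 92. Leaving out normal pool 6 reduced the 24 calls to 15. Crct1, a cysteine-rich gene beside the Lce cluster, rose by 3.68 (SE 1.10, adjusted p = 0.012). It lay over 1 log2 unit above the highest pool on 7 of 9 recurrent arrays, and its difference was 1.74 (adjusted p = 0.106) without the 6 arrays high in Krt4 and Krt13. Dmkn, dermokine, rose by 3.07 in the full fit and differed by 0.30 (adjusted p = 0.644) without those arrays. Krt6a rose by 4.06 (SE 0.88, adjusted p = 0.0010) and still by 2.36 (adjusted p = 0.012) without them. Asprv1, the protease that trims profilaggrin, rose by 2.76, a call lost in the same comparison. Tfap2a, a regulator, rose by 2.50. Ugcg rose by 1.44 and differed by 1.05 (adjusted p = 0.080) without those arrays. The Elf3, Cebpa, Krt77 and Rptn calls given below were also lost in that comparison. The arrays left out include recurrent arrays 5, 1 and 4, which stood 8.80, 6.92 and 5.38 above the normal mean of Crct1. Its lower difference therefore follows from that choice of arrays. With fewer recurrent arrays kept, a lost call there cannot be read as a result about the gene.

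The falls in recurrent arrays were mostly of junction, protease and regulator genes. Dsg2, the desmoglein of simple and basal epithelia, fell by 4.65 (SE 0.62, adjusted p = 6.27e-06) and read 4.14 to 9.82 on recurrent arrays against 11.38 to 11.95 in pools. Pkp2 fell by 2.44 and Dsp, desmoplakin, by 2.61, so 3 of 11 desmosome genes fell. Dsp nevertheless read 13.52 and 12.65 on recurrent arrays 5 and 4, above the highest pool (12.58). It read 11.88 on array 1 and 4.72 to 11.14 on the other recurrent arrays. Prss8 fell by 3.67 (SE 0.56, adjusted p = 3.03e-05) and St14, its activating partner matriptase, by 2.60. Of 17 regulators 6 fell: Ehf by 2.28, Trp63 by 2.04, Grhl2 by 1.81, Elf3 by 1.38, Notch1 by 1.12 and Cebpa by 0.85. Ehf nevertheless read 11.29 on recurrent array 5, against at most 9.80 in pools. It read 9.11 on array 4, 8.65 on array 1, and 6.33 and 6.04 on arrays 8 and 9. Trp63 read 10.05 on recurrent array 5, 8.75 on array 4 and 7.74 on array 1, and 4.05 to 5.25 on the other 6. Its fall was 3.69 without the arrays high in Krt4 and Krt13, and its adjusted p of 0.049 in the full fit passed the threshold narrowly. The other Trp63 probe sets differed by 0.24 and -0.17, and the other Grhl2 probe sets by -0.08, -0.27 and -0.10. Some calls were narrow: of 35 alternatives Dsp was called in 13, Ehf in 12, Trp63 in 11, Cebpa in 9, Dmkn in 22 and Asprv1 in 23. Krt1 fell by 0.62 and Krt77 by 0.32, 2 of 3 suprabasal keratins. Both were dim, at most 5.14 and 5.51 on any array, under the 40th percentile of all values (6.70). These are small differences at low signal, and both calls were lost within the JK series. Calml3 fell by 2.95 and Fa2h by 1.13. Outside the JK series, where 6 recurrent arrays met 2 pools, 0 list genes were called by limma, and 12 had an unadjusted p under 0.05.

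Rptn, repetin, shows how a probe set can decide a call. The probe set with the highest mean, used here, fell by 0.27 in recurrent arrays (limma adjusted p = 0.042). Another Rptn probe set stood 2.65 higher in recurrent arrays than in pools and read 13.59 on recurrent array 5, 11.47 on recurrent array 1 and 9.21 on ATC array 2, against at most 3.67 in pools. The third differed by -0.08. With the mean of all 3 the Rptn difference was 0.77. The 3 Krt14 probe sets were higher in ATC by 4.36, 4.39 and 0.71. Those of Krt6a were higher in ATC by 5.61, 2.75 and 1.70, and in recurrent arrays by 4.06, 1.75 and 1.30.

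Between recurrent and ATC arrays 5 list genes were lower and 0 higher, 5.43% against 4.32% of all genes (1.19% higher and 3.12% lower). Ivl was lower in recurrent arrays by 3.78 (difference -3.78, SE 0.40, limma adjusted p = 3.43e-06). On recurrent arrays it read 5.02 to 7.99, with 5.37, 5.15 and 5.30 on arrays 1, 4 and 5, which are the recurrent arrays highest in Sprr3, and 5.23 to 5.65 in the pools. On ATC array 2 both Ivl (9.48) and Lor (11.68) lay above the pools. Dsg2 was lower by 3.40 (adjusted p = 0.0034), Serpinb2 by 4.20, Klk6 by 3.42 and Klk8 by 2.13, the last 2 kallikrein proteases that cut corneodesmosomes. The Ivl call held in all 35 alternatives tried. The Serpinb2 call (adjusted p = 0.029) was lost without ATC array 1, 2, 3 or 5, and the Klk8 call (adjusted p = 0.035) without ATC array 1, 2, 3 or 4 or recurrent array 7 or 9. Tgm1, Tgm3, Klf4, Krt5, Flg, Sprr2d, Sprr2f and Sprr2k were not called in ATC or recurrent arrays against pools. On recurrent array 5, however, Tgm3 read 10.32 and Tgm1 10.45, against at most 6.96 and 7.89 in pools. Krt5 read 12.30, 11.99 and 9.47 on recurrent arrays 4, 5 and 1, and 5.92 to 7.21 on the other recurrent arrays, against at most 7.02 in pools.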

How the data were processed

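The deposited values are log2 intensities per probe set, which the authors computed by RMA in Partek, per the submitters' processing notes, with versions not given in the sources used here. RMA sets all arrays to 1 distribution of probe signals and compresses low ones, and without scanner files no detection call was made. All 22690 probe sets were read, of which 20393 have 1 gene symbol, 691 several and 1606 none in the platform annotation. Symbols were updated by gene ID for 20364. Where a gene had several probe sets the one brightest on average was used, which left 12394 genes. No low-level filter was used in the fit. No 2 arrays were identical (highest correlation 0.993 over 276 pairs). The number of arrays limits the precision.

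A 4-group linear model (limma 3.58.1, R 4.3.3) was fitted to all 24 arrays and genes, with Benjamini-Hochberg adjustment over 12394 genes, and checked on simulated data. Members carry differences and SEs and no test. Alternatives were 2 groups alone, title series, array weights, other probe set rules, scaling and filters, and leaving out each array. The members and lists were chosen with earlier results of these data known. Named were all members, in each list and comparison the called genes with the largest rise and fall, Krt1, Krt5, Krt14, Ivl, Flg, Tgm1, Tgm3, Trp63, Klf4 and the Sprr2 genes, and the 8 genes most alike. Every other list gene named, among them Krt4, Krt13, Krt2, Krt16, Rptn, Tgm2, Dsp, Dmkn and Asprv1, was chosen after its values were seen, as were the neighbours of the members. Figures were drawn with matplotlib 3.10.9.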

Additional observations from a re-analysis of the deposited data

Results flagged for a closer look

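ATC array 2 lay apart from the other 4 ATC arrays in 7 of the 10 members, its gap to the nearest array being large against the range of the group. This describes the arrays and is no test: the members were chosen for such levels, and the 5 Lce1 genes moved together, so the 7 are not separate. The rate of 1 in 20 at which chance marks a group, here over 40 groups, holds for values not chosen this way. Lor read 11.68 there against 6.56 to 7.07 on the other ATC arrays, and Sprr3 read 9.57 against 5.41 to 5.83. Lce1a1 read 8.57 against 5.65 to 6.05, and Lce1a2 read 7.97 against 5.19 to 5.59. Lce1b read 7.61 against 4.83 to 5.27, Lce1d read 7.57 against 2.95 to 3.46, and Lce1f read 8.26 against 4.39 to 5.21. Krt4 (12.74) and Krt13 (9.16) were high on the same array, as was the airway list (3.94 above its normal mean), and their part in these levels was not tested.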

How the results depend on the processing

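Counts of called keratinocyte genes moved with the fit, and the cause was not tested. The share of all genes called was not taken for the alternative fits. Whether the list genes moved more than other genes is therefore not known. The main fit shares 1 spread per gene over all groups, and the fit of 2 groups alone does not. For PTC against normal the count was 8, and 34 with the 2 groups alone, 19 in the JK series and 30 with array weights. For ATC against normal it was 24, and 44 with the 2 groups alone, 1 outside the JK series (17 at an unadjusted p under 0.05) and 45 with array weights. For recurrent against normal it was 24, and 14 with the 2 groups alone, 38 in the JK series, 0 outside it by limma (12 at an unadjusted p under 0.05) and 50 with array weights. For recurrent against ATC it was 5, and 1 with the 2 groups alone, 18 in the JK series, 1 outside it and 15 with array weights. Leaving out 1 array gave 6 to 10, 20 to 30, 15 to 30 and 3 to 7 in these 4 comparisons. The 15 came without normal pool 6, and the 3 without ATC array 1, 2 or 3. Without the 6 arrays high in Krt4 and Krt13, a comparison added after seeing the data, 13 genes were called between recurrent and ATC arrays. The recurrent minus normal difference turned to -0.0011 for Lce1a1, -0.33 for Lce1b and -0.43 for Lce1d. The arrays left out include those highest in the Lce1 genes, so this turn follows from that choice of arrays. PTC could not be compared outside the JK series, which holds all 4. No paired analysis was possible because the labels give no replicate numbers shared between groups.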
